A study of Mus musculus with 4 samples.

Results

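This section describes 7 genes for growth factor and cytokine receptors in mouse lymph node: Il11ra1, Prlr, Met, Tgfbr1, Bambi, Npr2 and Smo. They were taken by symbol from 56748 gene rows in each of 4 count tables, and all 7 had enough reads to be among the 10223 rows tested. The mice had experimental autoimmune encephalomyelitis (EAE), a model of multiple sclerosis in which immune cells attack central nervous tissue. One group of 2 mice received BrQ (2-bromo-1,4-naphthalenedione, a naphthoquinone with a bromine atom), and the other 2 mice, labelled Vehicle, were the controls. Strain, age, sex, dose and the time of collection are not given in the labels. Each library came from the lymph node RNA of 1 mouse, and replicates are numbered 1 and 3 in both groups. The series title asks about CD8 T cell expansion and Th1 and Th17 differentiation under the compound, a question these receptor genes bear on only as part of the tissue's signalling.

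Receptors of these kinds read signals from outside the cell. The interleukin 11 and prolactin receptors belong to the cytokine receptor class that signals through JAK kinases and STAT factors. Met is a receptor tyrosine kinase, Tgfbr1 a receptor serine/threonine kinase acting through SMAD factors, Npr2 a receptor that makes cyclic GMP, and Smo the membrane protein through which Hedgehog signals reach GLI factors. In lymphoid tissue such receptors are found on stromal and vessel cells as well as on leukocytes, and whole tissue RNA mixes them. In these bulk libraries a lower level can mean fewer cells of a type or less RNA per cell, and the 2 cannot be told apart.

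The libraries held 6813832 to 7989226 reads in gene rows, and rows that name no gene took 87% to 89% of all read rows. Much of the genome in these tables carries symbols that do not appear to sit on their own reads, so only the surroundings of the 7 genes were read. In their chromosome regions, 42 genes used in most cell types were looked up by symbol. Of these, 41 averaged at least 100 reads per library, against 18% of the 21871 placed protein-coding genes. The exception was Cav2 beside Met, at a mean of 17.8 reads. Of the 42, St7 beside Met lies outside the stretches of chromosome taken to hold their own symbols, and 40 of the 41 inside reached 100 reads. The stretches were chosen from these same libraries, and the 42 genes were picked as broadly used. Both choices favour such a share, and it does not show for any single gene that its symbol is in place. Some of the 42 are not close to their receptor gene: 6 were listed for Bambi, while 3 protein-coding genes start within 400 kb upstream of it. From the start of Bambi to 400 kb past its end there are 0. The lymphocyte genes in the same stretches had many reads: Pax5 of B cells averaged 8349 reads and Il7r of T cells 5065. The stromal chemokine Ccl21a was at 0 in every library, and Ccl19 had 27 and 8 reads in BrQ against 5 and 0 in Vehicle. These chemokine genes lie inside the stretches as taken here. An earlier pass over these libraries did not show that symbols hold their own reads where they lie, so their counts are uncertain.

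**Figure D1:**
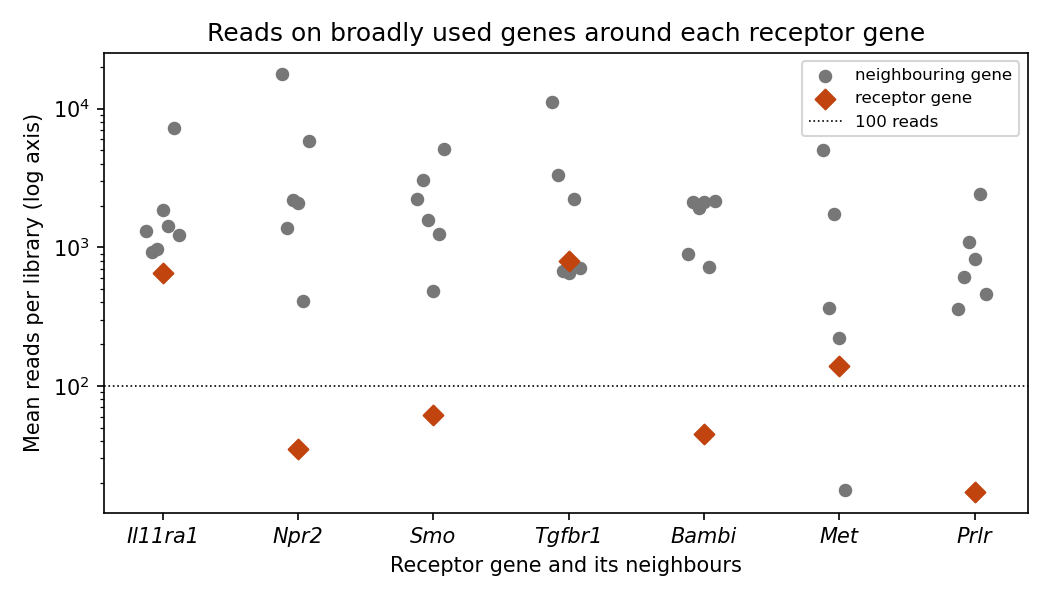
Mean reads per library over the 4 libraries (log axis), grouped by receptor gene along the horizontal axis. Grey points are the 42 broadly used genes listed as neighbours, some of them more than 400 kb away, and red diamonds the 7 receptor genes. Of the neighbours, 41 lie above the dotted line at 100 reads, and Cav2 near Met lies below it at 17.8.

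In the comparison of BrQ with Vehicle, Met, Prlr and Bambi rose, Il11ra1, Npr2 and Smo fell, and Tgfbr1 did not pass the test. Il11ra1 and Met were the members with the clearest separation, 2.77-fold lower and 3.66-fold higher in BrQ in mean level. Il11ra1 and Tgfbr1 were the abundant members in both groups. In mean CPM, Prlr was the lowest in Vehicle and Npr2 the lowest in BrQ. The count of 6 of 7 called, 3 in each direction, has to be read against the background. Of all 10223 rows tested, 45.7% were called at an adjusted p under 0.05 with edgeR, 23.6% as higher and 22.2% as lower. Of 451 rows tested in the 5 stretches of chromosomes that hold these genes, 44.8% were called, 20% as higher and 24.8% as lower. The levels of the groups did not overlap for 6 of the 7, which was so for 76.1% of all rows tested. The members were picked with earlier results known, so this count is no evidence that receptor genes respond more than others.

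**Figure D2:**
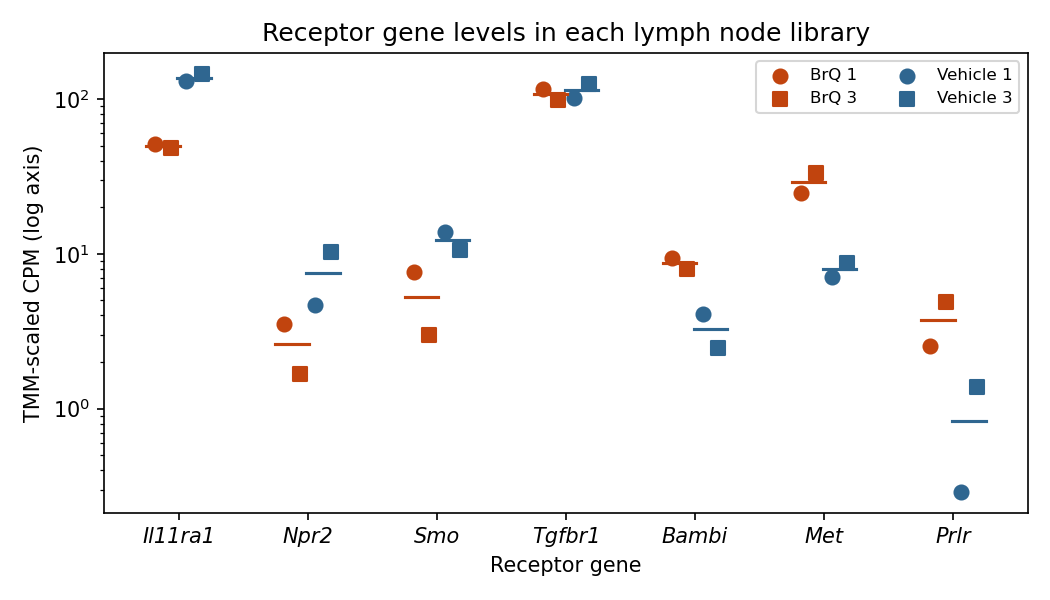
Level of each receptor gene in every library, in CPM, the reads of a gene relative to all gene reads of its library after TMM scaling (log axis). Red marks are BrQ and blue marks Vehicle, circles are replicate 1, squares replicate 3, and bars the mean of 2 mice. The 2 groups are apart for 6 genes and overlap for Tgfbr1.

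Il11ra1 encodes the alpha subunit of the interleukin 11 receptor, which binds the ligand and needs the shared subunit gp130 to signal. The gene is on chromosome 4 of GRCm38 from 41699989 to 41769474 on the plus strand and shares 0.179% of its exonic bases with Ccl27a. Reads numbered 404 (BrQ 1), 375 (BrQ 3), 895 (Vehicle 1) and 947 (Vehicle 3). Both BrQ libraries were far below both Vehicle libraries. The libraries within a group lay close together, 1.05-fold apart in BrQ and 1.12-fold in Vehicle. In CPM the BrQ mean was 49.7 ± 1.87 and the Vehicle mean 137.7 ± 10.8 (SD, n = 2 mice). The log2 fold change was -1.47 ± 0.16 (SE), with an adjusted p of 0.000172 by edgeR's quasi-likelihood test. It kept its direction and its call under each of the 12 alternatives, at log2 fold changes of -1.57 to -1.09 and adjusted p of up to 0.0159.

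Mouse chromosome 4 carries near-identical copies of Il11ra1, so where its reads come from matters. The transcript Il11ra1-203 of 1953 bases matches Gm13305-201 over its full length at 98.9% identity, with 22 differing bases. It matches the 1299 coding bases of Il11ra2-201 at 99% identity, with 13 differing bases. Of all windows of 100 bases in Il11ra1-203, 32.4% occur whole in Gm13305-201 and 27.1% in Il11ra2-201. The 60 coding bases below, from the GENCODE transcripts, are one stretch where Il11ra2 differs from Il11ra1, with the 3 differing positions in capitals. They show that a read here has few bases by which to choose a copy.
Il11ra1-203, bases 1331 to 1390: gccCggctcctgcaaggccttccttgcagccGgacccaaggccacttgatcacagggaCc
Il11ra2-201, bases 1031 to 1090: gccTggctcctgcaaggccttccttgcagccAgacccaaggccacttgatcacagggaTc
Gm13305-201, bases 1331 to 1390: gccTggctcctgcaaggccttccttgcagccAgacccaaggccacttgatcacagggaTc
In this stretch both copies carry the same bases. Gm13305 had 1 and 0 reads in BrQ against 0 and 2 in Vehicle, and Il11ra2 had 0 and 1 against 2 and 2. These few reads were not shown to belong to the copies. Of 14 protein-coding genes that start inside the span of Il11ra1 or within 400 kb past its end, 5 averaged at least 50 reads. So did 4 of 9 that start within 400 kb upstream. How reads that fit several copies equally well were counted is not given in the sources at hand. Galt, a galactose metabolism gene inside the annotated span of Il11ra1, shared no exonic base with it in GENCODE. Galt fell too, from 1321 and 1358 reads in Vehicle to 607 and 567 in BrQ, a log2 fold change of -1.42 ± 0.15 (SE; edgeR adjusted p = 0.000146). Whether the neighbour's reads have a part in the fall of Il11ra1 was not tested.

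Prlr encodes the prolactin receptor, a cytokine receptor of the same class that acts mainly through STAT5. It lies on chromosome 15 from 10177238 to 10349180 (GRCm38, plus strand) and shares 1.32% of its exonic bases with Gm21973, so reads there are uncertain. Reads numbered 20 (BrQ 1), 38 (BrQ 3), 2 (Vehicle 1) and 9 (Vehicle 3), the fewest of the 7 genes in each Vehicle library and in BrQ 1, but not in BrQ 3. The groups did not overlap, but the lowest BrQ level was only 1.83-fold above the highest Vehicle level, and the Vehicle libraries were 4.75-fold apart. The BrQ mean was 3.71 ± 1.68 CPM and the Vehicle mean 0.836 ± 0.771 (SD, n = 2 mice). The 58 reads of the BrQ libraries against 11 of the Vehicle libraries made a scaled ratio of 4.51, with an exact 95% counting interval of 2.34 to 9.53 that leaves out the spread between mice. The log2 fold change was 2.15 ± 0.69 (SE, adjusted p = 0.0287 with edgeR). The call was lost under 4 alternatives: no low count filter, DESeq2, without BrQ replicate 3 and without Vehicle replicate 1. Adjusted p over the 12 alternatives ran from 0.00418 to 0.165. Without Vehicle replicate 3 the log2 fold change was 3.58, and without Vehicle replicate 1 it was 1.39.

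Met encodes the receptor for hepatocyte growth factor, known for driving epithelial growth and movement and also present on some dendritic cells and T cells. It lies on chromosome 6 from 17463800 to 17573980 (GRCm38, plus strand) and shares no exonic base with another annotated gene. Reads numbered 195 (BrQ 1), 259 (BrQ 3), 49 (Vehicle 1) and 57 (Vehicle 3). The lowest BrQ level was 2.82-fold above the highest Vehicle level, the widest gap among the 7 genes. The BrQ mean was 29.0 ± 6.21 CPM and the Vehicle mean 7.93 ± 1.15 (SD, n = 2 mice). The log2 fold change was 1.87 ± 0.27 (SE, adjusted p = 0.000666 with edgeR). Under the 12 alternatives it ran from 1.65 to 2.25 and kept its call in each, with adjusted p of up to 0.0206. The next gene downstream, Capza2 of the actin capping protein, also rose, from 2330 and 2541 reads in Vehicle to 7237 and 8136 in BrQ, a log2 fold change of 1.43 ± 0.14 (SE; edgeR adjusted p = 0.000114). On the other side Tes held 1961 and 1975 reads against 1694 and 1337 and did not pass (adjusted p = 0.402, edgeR).

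The promoters given for the members, whatever their fold change, were searched for short elements known to answer to signalling. RefSeq promoter windows of 300 bases (GRCm38.p6) were given for 6 of the 7 genes, 10 windows in all. Bambi, which rose, had no window and was not searched. The elements searched on both strands were the STAT element TTCNNNGAA, the AP-1 site TGACTCA, the cAMP element TGACGTCA, the SMAD box GTCTAGAC and the GLI site GACCACCCA. The AP-1 site was found in 2 of the 10 windows and in 5.2% of all 32851 promoter windows. The STAT element was found in 1 of the 10 and in 8.3% of all. The other elements had no match in the 10 windows and occur in 1.79% (cAMP element), 0.213% (SMAD box) and 0.253% (GLI site) of all windows. The 3 matches, all that were found in the 10 windows, lie in Met and Prlr. They are shown in capitals within 30 bases of the plus strand.
Met, AP-1 site, chr6:17463892-17463921: tgttgcccggcTGAGTCAcgggccgggcag
Prlr, STAT element, chr15:10223786-10223815: gcaaaatgagTTCTAGGAAtaagggatatc
Prlr, AP-1 site, chr15:10293620-10293649: ttgagttaaaaTGAGTCAtcttctctttca
The match in Met begins 54 bases before the RefSeq start site, which lies inside the gene as GENCODE draws it. Those in Prlr begin 110 and 20 bases before internal start sites, 2 of its 3 listed starts. A match of letters is a description of the window and not a binding site.

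Tgfbr1 and Bambi belong to the same pathway with opposite roles. Tgfbr1 is the type I receptor kinase for TGF-beta, a cytokine that restrains T cells and takes part in both regulatory T cell and Th17 differentiation. Bambi is a pseudoreceptor that resembles a type I receptor but lacks the kinase domain, and it dampens TGF-beta and BMP signals. Tgfbr1, on chromosome 4 from 47353222 to 47414931 (GRCm38, plus strand), had 913 reads in BrQ 1, 765 in BrQ 3, 700 in Vehicle 1 and 819 in Vehicle 3. The groups overlapped, with BrQ 1 and Vehicle 3 the 2 highest levels. At 107.0 ± 11.7 CPM against 113.7 ± 17.0 (SD, n = 2 mice), the log2 fold change was -0.09 ± 0.17 (SE, adjusted p = 0.695 with edgeR). Its 95% interval, -0.46 to 0.29, leaves room for modest change in either direction.

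Bambi, on chromosome 18 from 3507923 to 3516404 (GRCm38, plus strand), had 74 reads in BrQ 1, 62 in BrQ 3, 28 in Vehicle 1 and 16 in Vehicle 3. Both BrQ libraries lay above both Vehicle libraries, by 1.97-fold at the nearest pair. The BrQ mean was 8.67 ± 0.953 CPM and the Vehicle mean 3.26 ± 1.14 (SD, n = 2 mice), a 2.66-fold difference in means. The log2 fold change was 1.40 ± 0.39 (SE, adjusted p = 0.0151 with edgeR). The call was lost with no low count filter and without BrQ replicate 1, BrQ replicate 3 or Vehicle replicate 3, at log2 fold changes of 1.43, 1.30, 1.52 and 1.08. Adjusted p over the 12 alternatives ran from 0.00231 to 0.103.

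Npr2 encodes the receptor for C-type natriuretic peptide, a guanylyl cyclase found in vessel and bone tissue, among others. It lies on chromosome 4 from 43631935 to 43651244 (GRCm38, plus strand), and 5.7% of its exonic bases are shared with the antisense gene Gm12473. Reads on that part are uncertain because the strand setting of the counting is not given. Reads numbered 28 (BrQ 1), 13 (BrQ 3), 32 (Vehicle 1) and 67 (Vehicle 3). The groups were barely apart: Vehicle 1 was 1.31-fold above BrQ 1, while the libraries within each group differed by 2.11-fold and 2.21-fold. The BrQ mean was 2.61 ± 1.31 CPM and the Vehicle mean 7.47 ± 3.98 (SD, n = 2 mice), and the log2 fold change was -1.50 ± 0.51 (SE, adjusted p = 0.0372 with edgeR). Of 6 broadly used neighbours of Npr2, 5 fell and 1 rose, beside 14 lower and 5 higher among all 42 neighbours and 45.7% called among all rows. Of the 6 neighbours listed for Tgfbr1, which was not called itself, 4 fell and 0 rose. Of the 6 listed for Bambi, which rose, 2 rose, Kif5b and Rock1, and 0 fell, but some of these 6 lie more than 400 kb from Bambi. Of the 6 listed for Prlr, which rose, 0 rose and 1 fell. Of the 6 listed for Smo, which fell, 1 rose and 1 fell. For Met, which rose, 1 of 5 rose and 0 fell, and for Il11ra1, which fell, 3 of 7 fell and 0 rose. The part of the region in the fall of Npr2 was not tested. The call was lost under 5 alternatives: library size alone, no low count filter, limma voom, without BrQ replicate 3 and without Vehicle replicate 3. Adjusted p ran from 0.0116 to 0.299, and the log2 fold change from -2.12 without BrQ replicate 1 to -0.84 without Vehicle replicate 3.

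Smo encodes Smoothened, which Patched holds inactive until a Hedgehog ligand binds Patched. It lies on chromosome 6 from 29735503 to 29761365 (GRCm38, plus strand) and shares no exonic base with another annotated gene. Reads numbered 60 (BrQ 1), 23 (BrQ 3), 95 (Vehicle 1) and 69 (Vehicle 3). BrQ 3 was the lowest, and the gap between the nearest libraries, 1.40-fold, was smaller than the 2.55-fold difference between the BrQ mice. The BrQ mean was 5.27 ± 3.26 CPM and the Vehicle mean 12.2 ± 2.27 (SD, n = 2 mice). The log2 fold change was -1.21 ± 0.41 (SE, adjusted p = 0.0357 with edgeR). It was lost under 6 of the 12 alternatives: library size alone, that of every read row, no low count filter, and without BrQ replicate 3, Vehicle replicate 1 or Vehicle replicate 3. Adjusted p ran from 0.0118 to 0.259, and the log2 fold change from -2.02 without BrQ replicate 1 to -0.68 without BrQ replicate 3.

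Reads of one member per reads of another show the members beside each other within a library. Tgfbr1 was taken as the base after it was seen not to pass the test, so dividing by it is itself a scaling chosen on the outcome, and the ratios are a description. For every 100 Tgfbr1 reads, Il11ra1 had 44.2 (BrQ 1), 49.0 (BrQ 3), 127.9 (Vehicle 1) and 115.6 (Vehicle 3). Il11ra1 thus outnumbered Tgfbr1 in both Vehicle libraries and had fewer than 50 reads per 100 in both BrQ libraries. Bambi had 8.1 reads per 100 of its signalling counterpart in both BrQ libraries, against 4 and 1.95 in Vehicle. Met had 21.4 and 33.9 reads per 100 Tgfbr1 reads in BrQ against 7 and 6.96 in Vehicle. Npr2 had 3.07 and 1.70 in BrQ and 4.57 and 8.18 in Vehicle, and Smo 6.57 and 3.01 in BrQ and 13.6 and 8.42 in Vehicle. Prlr had 2.19 and 4.97 in BrQ and 0.286 and 1.10 in Vehicle. The groups did not overlap in any of the 6 ratios, which restates the separation of the CPM levels, where 76.1% of all rows tested did not overlap, and adds no separate support. Set against each other, Met had 48.3 and 69.1 reads per 100 Il11ra1 reads in BrQ against 5.47 and 6.02 in Vehicle.

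**Figure D3:**
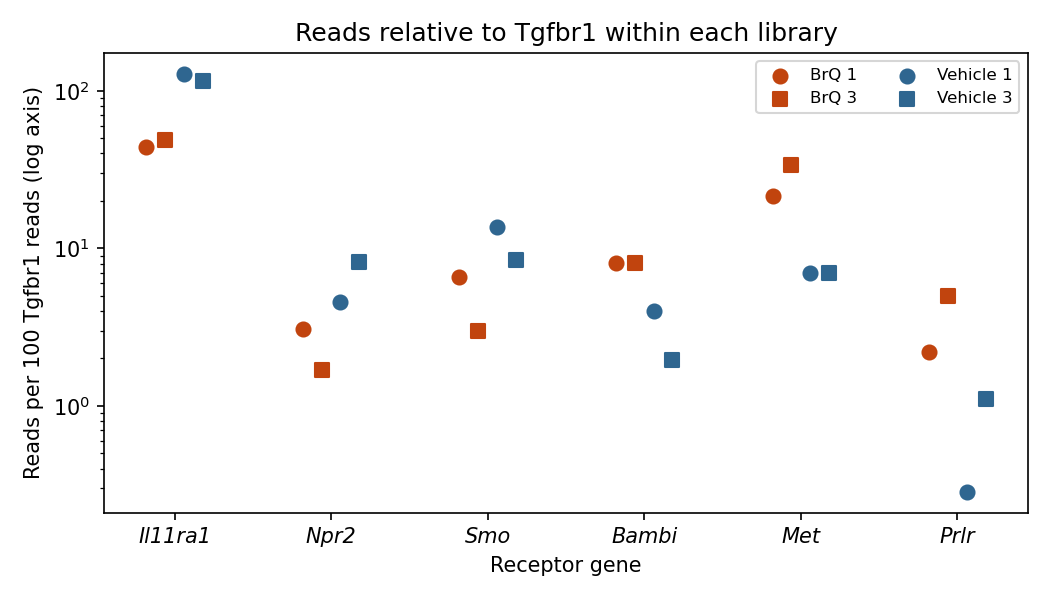
Reads of 6 receptor genes per 100 Tgfbr1 reads within each library (log axis), with BrQ in red, Vehicle in blue, circles for replicate 1 and squares for replicate 3. Il11ra1, Npr2 and Smo are lower in both BrQ libraries than in both Vehicle libraries, and Bambi, Met and Prlr higher.

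To set the genes beside each other, CPM was divided by exonic length in GENCODE (CPM per kb), a rough scale because the annotation used for the counting is not given. In Vehicle the level per kb fell from Il11ra1 at 30.8 ± 2.42 to Tgfbr1 at 17.4 ± 2.59, Smo at 2.17 ± 0.404 and Npr2 at 1.60 ± 0.853. Met at 1.03 ± 0.150, Bambi at 0.643 ± 0.225 and Prlr at 0.0545 ± 0.0503 came last (SD, n = 2). Smo and Npr2 overlapped, as did Npr2 and Met. In BrQ the order was Tgfbr1 at 16.4 ± 1.80 CPM per kb, Il11ra1 at 11.1 ± 0.418, Met at 3.78 ± 0.809 and Bambi at 1.71 ± 0.188. They were followed by Smo at 0.938 ± 0.580, Npr2 at 0.559 ± 0.282 and Prlr at 0.242 ± 0.11. In BrQ only Smo and Npr2 overlapped among neighbours in the order. Il11ra1 and Tgfbr1 changed places between the groups, and Met stood below Smo and Npr2 in Vehicle means and above both in BrQ.

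Another scaling between libraries shifts all genes by about the same amount, so each fold change is also given from the median of all rows. The median log2 fold change of all 10223 rows was 0.05 under TMM, 0.42 when only library size was used and 0.26 when library size came from every read row. Measured from the TMM median, Prlr stood at 2.1, Met at 1.82, Bambi at 1.35, Tgfbr1 at -0.14, Smo at -1.26, Il11ra1 at -1.52 and Npr2 at -1.55 on the log2 scale. The sign of Tgfbr1 by itself turned with the scaling, to 0.29 for library size only and 0.13 for every read row. The median of the 7 genes with TMM was -0.09, beside 0.05 for all rows.

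**Figure D4:**
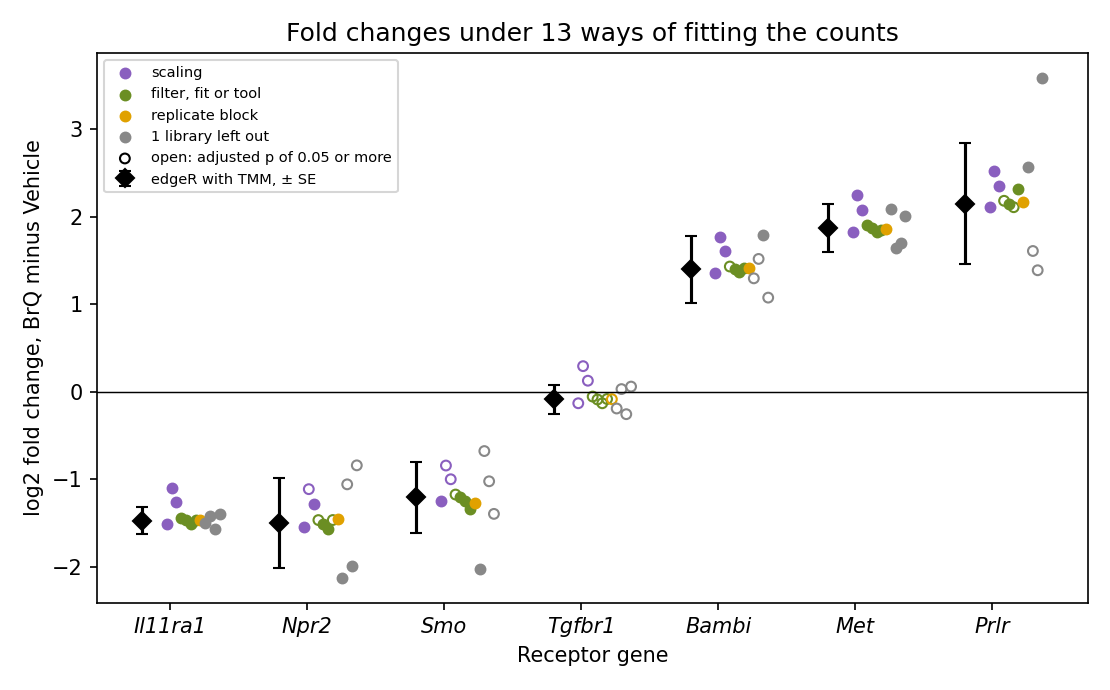
The log2 fold change of each receptor gene, BrQ minus Vehicle, by edgeR with TMM (black diamonds, bars ± SE) and under 12 alternatives (coloured points, open where the adjusted p was 0.05 or more). Il11ra1 and Met are filled throughout, Tgfbr1 is open throughout and crosses 0, and Smo, Npr2, Bambi and Prlr have open points.

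Ligands, partner receptors and downstream factors of these pathways were listed as 63 further genes, of which 11 lay in the 5 stretches. Only those 11 were read. Of them 4 had enough reads to be tested, 1 rose and 1 fell. Lpar1, a receptor for lysophosphatidic acid, rose from 46 and 39 reads in Vehicle to 106 and 92 in BrQ, a log2 fold change of 0.99 ± 0.30 (SE; edgeR adjusted p = 0.0214). Il7r, the interleukin 7 receptor alpha chain and a cytokine receptor like Il11ra1 and Prlr, fell from 5590 and 5869 reads to 4097 and 4704 (log2 fold change -0.61, SE 0.14, adjusted p = 0.00616 with edgeR). Zeb1, a transcription factor that TGF-beta induces in many cells, held 942 and 1028 reads against 835 and 803 and did not pass (adjusted p = 0.835, edgeR). Cav1, which takes part in TGF-beta receptor uptake, held 2 and 10 reads against 8 and 13 and did not pass either (adjusted p = 0.293, edgeR). The other 7 were Cntfr, Epha7, Musk, Gdf6, Npr3, Fzd8 and Calcr, with means of 0 to 7 reads per library. Cntfr, the ciliary neurotrophic factor receptor beside Il11ra1, was the highest of these, with 1 and 3 reads in BrQ against 6 and 18 in Vehicle.

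Summed marker genes of other cells are given beside these genes as a description. The groups did not overlap for 76.1% of all rows tested, so a direction shared with a receptor gene is common. The fibroblast markers Col1a2 and Osr2 summed to 13.8 and 11.5 CPM in BrQ 1 and 3 and 17.9 and 26.4 in Vehicle 1 and 3. The endothelial markers Cav1 and Colec12 summed to 5.43 and 3.10 CPM in BrQ and 11.6 and 11.5 in Vehicle, so both sums were lower in BrQ. Col1a2 made most of the fibroblast sum, averaging 12.6 CPM in BrQ and 21.7 in Vehicle. Colec12 made most of the endothelial sum, averaging 3.49 CPM in BrQ and 9.99 in Vehicle. Aqp3 and Cdh17 were listed as epithelial markers, but their reads were not shown to come from epithelium. Together they summed to 76.0 and 73.5 CPM in BrQ and 56.8 and 51.7 in Vehicle. That sum rose with Cdh17, as Aqp3 averaged 45.1 CPM in BrQ and 45.4 in Vehicle. Of those 6 markers 1 rose, Cdh17, and 2 fell, Col1a2 and Colec12, while Aqp3, Cav1 and the untested Osr2 gave no call. The adipocyte markers Lep and Aqp7 had 0 reads throughout and 2 to 19 reads. The lymph node stroma markers Ccl19 and Ccl21a, whose counts are uncertain, summed to 3.41 and 1.03 CPM in BrQ and 0.726 and 0 in Vehicle. B cell markers Pax5 and Cd72 summed to 2075 and 2126 CPM in BrQ and 3254 and 3391 in Vehicle, with Cd72 called lower and Pax5 not called. T cell markers Il7r, Tox and Sit1 summed to 679.2 and 754.8 CPM in BrQ and 1005 and 1070 in Vehicle, with Tox called higher and the other 2 lower. Il7r made most of that sum, averaging 562.2 CPM in BrQ and 856.4 in Vehicle. The part of such shifts in the changes of the receptor genes was not tested.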

How the data were processed

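RNA from lymph nodes of 4 EAE mice was extracted with TRI Reagent and read from both fragment ends, per the labels' protocols. For each mouse the authors deposited a table of unnormalized read counts by gene. The tools named are HTSeq 0.11.2, HISAT2 2.1.0 and Trim Galore 0.6.2, with build mm10, per the submitters' processing notes. Neither annotation release nor strand setting is given in the sources used here. Rows that name no gene (87% to 89% of read rows) were left out. Positions, exonic lengths and transcripts came from GENCODE M21 (GRCm38), which placed 52073 of 56748 IDs, and promoters from RefSeq (GRCm38.p6). Titles gave each sample its group and number. Chi-square per feature between libraries was 12.4 in BrQ and 26.6 in Vehicle, so none was a copy.

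BrQ and Vehicle were compared with edgeR 4.0.16 in R 4.3.3 (quasi-likelihood test, filterByExpr, TMM, all 4 libraries) on the whole table. P-values were adjusted by Benjamini-Hochberg over all 10223 features tested, with a threshold of 0.05. The SE is the log2 fold change divided by the square root of its F value. The fit was tested on simulated data. These had the same spread between mice beyond counting for every gene, so the outcome does not cover genes that vary more. Alternatives were 3 other scalings, no low count filter, the legacy fit, DESeq2 1.42.0, limma 3.58.1 voom, the replicate number as a block and each library left out. All 7 members are named, with genes of the pathway list in the 5 stretches taken over from an earlier pass over these data. Members and lists were chosen with earlier results of these data known. With 2 mice per group each SD rests on 2 values, and p-values rest on these mice only. The edgeR test sets the spread of each gene partly from that of other genes. Figures were drawn with matplotlib 3.10.9.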

Additional observations from a re-analysis of the deposited data

Results flagged for a closer look

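Rows that name no gene were used here only for an alternative library size. They held a larger share of reads in BrQ, with a mean of 88.8%, than in either Vehicle library, at 88% and 87%.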

How the results depend on the processing

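Il11ra1 and Met kept direction and call under all 12 alternatives, and the other 4 called genes kept their direction in all 12. With no low count filter 2481 features passed against 4676, and 2 of the 7 receptor genes (Il11ra1 and Met) against 6. Leaving out 1 library gave 2031 (without BrQ replicate 3) to 4376 (without Vehicle replicate 1) features and 2 (without BrQ replicate 3) to 5 (without BrQ replicate 1) receptor genes. Without Vehicle replicate 3 there were 3. A group is then 1 mouse, assumed to vary like the other group. Tgfbr1, not called in any fit, turned from -0.09 to 0.29 for library size alone, 0.13 for library size over every read row, 0.0316 without BrQ replicate 3 and 0.0603 without Vehicle replicate 3, with a lowest value of -0.2549 without Vehicle replicate 1. Of all features called, 2409 were higher and 2267 lower with TMM, against 3607 and 1072 for library size alone and 3092 and 1578 for library size over every read row. With the replicate block 4190 features and 6 receptor genes passed, and no receptor gene changed its call. The labels give the shared numbers no meaning, and the deviations of BrQ 1 and Vehicle 1 from their group means had a correlation of -0.12 over features. The low counts of Prlr, Npr2, Smo and Bambi limit their precision.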
